A study of Mus musculus with 10 samples.

Results

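The genes described here were 9 members of the transforming growth factor beta (TGF-β) pathway among the 23201 genes of a single-cell count table of chemical reprogramming. They were chosen by name, because the cocktail contained an inhibitor of ALK5, the kinase that *Tgfbr1* encodes, and all 9 names were found in the table. By role, *Tgfb1*, *Tgfb2* and *Tgfb3* encode the ligands and *Ltbp2* encodes a matrix protein of the latent TGF-β binding family. *Tgfbr1* encodes the type I receptor, *Smad7*, *Skil* and *Pmepa1* encode inhibitors that the pathway itself induces, and *Tgfbi* encodes a secreted matrix protein named for its induction by TGF-β. The starting cells were mouse embryonic fibroblasts (MEFs) of ICR mice, cultured in medium with fetal bovine serum. After d0, all groups received XEN reprogramming medium, with serum, serum replacement, basic fibroblast growth factor and the C6FAE cocktail, towards cells that resemble extraembryonic endoderm (XEN). C6FAE stands for CHIR99021 (a GSK3 inhibitor), RepSox (the ALK5 inhibitor), Forskolin (a cAMP agonist), AM580 (a retinoic acid receptor agonist) and EPZ004777 (a DOT1L inhibitor). The labels name C6FAE alone, whereas the methods of the study also list valproic acid, a histone deacetylase inhibitor, in this medium, so whether these cells received it is not settled here. Cells were picked by hand on days 0, 1, 2, 3, 4, 5, 6, 8, 12 and 20, named d0 to d20. The day 6 cells are named d6p, with a p whose meaning is not stated, and d8c and d12c cells came from colonies picked on days 8 and 12. No course without RepSox was in the table, so its part in a difference cannot be told apart from that of time, medium or the other compounds.

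TGF-β ligands are secreted in a latent form that is held by binding proteins in the matrix. Once released, they join type II and type I receptors, and the type I kinase ALK5 phosphorylates Smad2 and Smad3, which enter the nucleus and bind target genes. Among the targets are inhibitors that close a negative feedback loop and, in fibroblasts, genes of the matrix and of contraction. TGF-β signaling favours the mesenchymal state of fibroblasts, and ALK5 inhibitors are used in many protocols that change cell identity.

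Of 808 deposited cells, 670 had at least 4000 detected genes and were kept, with a median of 510306 UMIs (unique molecular identifiers, tags that mark single RNA molecules) and a range from 17633 to 6004864. The filter removed 45 of 96 d12c cells and 34 of 72 d20 cells, but at most 12 cells in any other group. The groups held between 20 (d8c) and 86 (d6p) kept cells, and their median depth was lowest at d20, with 195480 UMIs, and highest at d2, with 1055206. Cells could not be assigned to the 10 sequenced batches, so each group was 1 sample, no test between groups was possible and no p-value was computed. Levels are CPM, UMIs scaled to the gene UMIs of the cell, averaged over the kept cells of a group. SDs are over cells and are not an error between replicates, and 95% intervals of summed UMIs (exact Poisson) or of shares (exact Clopper-Pearson) cover counting error only. Cell names end in a running number, and the means over ranges of 24 numbers served to describe the spread within a group. The d12c group was divided by number, because the 21 kept cells numbered 1 to 24 and the 30 numbered 49 to 96 differed in their markers, and no cell numbered 25 to 48 was kept. In each group from d0 to d12, at least 9 of 10 fibroblast markers exceeded 10 CPM. In d20 cells 9 of 10 XEN markers did, as did 3 of 10 fibroblast markers (*Pdgfra*, *Thy1* and *Fbn1*). *Osr1* and *Dcn* were at 0 in these cells. *Pdgfra* had a mean of 200.9 CPM at d20 against 28.2 CPM at d0, whereas *Thy1* and *Fbn1* were below their d0 means. The median summed CPM of the 10 fibroblast markers was 3451 at d0, 14937 at d8, 10619 at d12, 6615 in d12c cells 1 to 24, 186 in d12c cells 49 to 96 and 244 at d20. That of the XEN markers was 49.1 at d0, 46.2 at d12, 196 and 1104 in the early and late d12c cells, and 1491 at d20. Some d0 cells also carried muscle genes (*Actc1*, mean 224 CPM), with a median summed level of 5 muscle markers of 2.22 CPM.

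The promoters of *Tgfb2* and *Tgfbi* are shown because these were the members that rose most over the first 3 days. Each sequence is the 250 bases before the start that RefSeq gives (GRCm38.p6), found by an exact match on NCBIM37, the build called mm9. The capitals mark matches to the searched letters on either strand, and letters in lower case match none of them.
*Tgfb2*, chr1:188529869-188530118, minus strand: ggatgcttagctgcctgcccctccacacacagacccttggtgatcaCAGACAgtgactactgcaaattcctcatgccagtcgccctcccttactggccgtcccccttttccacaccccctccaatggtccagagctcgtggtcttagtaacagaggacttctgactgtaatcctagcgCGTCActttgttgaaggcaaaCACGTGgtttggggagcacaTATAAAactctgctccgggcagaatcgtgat
*Tgfbi*, chr13:56710697-56710946, plus strand: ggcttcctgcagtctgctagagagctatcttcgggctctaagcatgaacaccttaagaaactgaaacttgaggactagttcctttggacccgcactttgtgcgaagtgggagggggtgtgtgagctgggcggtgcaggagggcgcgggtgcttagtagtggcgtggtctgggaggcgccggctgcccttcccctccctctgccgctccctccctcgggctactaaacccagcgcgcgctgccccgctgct
The searched letters were those of SMAD elements, the cAMP response element and its core, an AP-1 site, an E-box and a TATA box, each on both strands of 32851 RefSeq mouse promoters of this length. The SMAD element CAGACA stood 204 bases before the *Tgfb2* start and was found in 17.1% of promoters. The core of the cAMP response element, TGACG, stood 72 bases before it on the other strand and was found in 17.8%. The E-box CACGTG stood 51 bases before it and was found in 6.02%. The TATA box letters TATAAA stood 31 bases before it and were found in 12.4%. The whole cAMP response element TGACGTCA, which contains the core, was found in 1.55% of promoters and not in that of *Tgfb2*. Likewise the palindromic SMAD element GTCTAGAC was found in 0.167% and the AP-1 site TGANTCA in 6.75%. The *Tgfbi* window held none of these letters. A match describes the sequence and is not evidence of binding, and 5 of the 9 members were in the promoter table.

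The ligand gene *Tgfb2* had a higher mean in each group after d0 than at d0. *Tgfb2* (ENSMUSG00000039239, chr1:188447065-188529871, minus strand) had a mean of 50.1 ± 82.3 CPM (SD over 72 cells) at d0 and 63.8 ± 80.3 CPM (SD over 40 cells) at d1. It then reached 143 CPM at d2, 489 at d3, 659 at d4, 433 at d5, 769 at d6p and 858 at d8. It was 569 CPM in d8c cells, 497 at d12, 560 in d12c cells 1 to 24, 293 in d12c cells 49 to 96 and 211 at d20. The rise was therefore steepest between d1 and d3, and each group from d2 on stood above d0. In single cells the median moved in the same way, from 11.4 CPM at d0 to 692 CPM at d8, and at d8 57 of 62 cells had at least 100 CPM against 13 of 72 at d0. Number ranges within d0 had means of 42.2 to 55.9 CPM and those within d8 means of 770 to 931 CPM, so these did not overlap. At d4 the ranges ran from 277 to 994 CPM, which takes in those of d3 (419 to 540 CPM) and d5 (407 to 485 CPM), so the order of these days is not settled.

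*Tgfb3* (ENSMUSG00000021253, chr12:87397694-87419991, minus strand) behaved differently. Its mean was 78.3 ± 198 CPM (SD over 72 cells) at d0, and the group means from d1 to d12 lay between 27.2 CPM at d4 and 48.1 CPM at d3. It was 13.7 CPM in d12c cells 1 to 24, 6.5 CPM in d12c cells 49 to 96 and 0.546 CPM at d20, where 5 UMIs in 2 of 38 cells were all that was found. A few cells carried the d0 mean. Without the highest cell it was 58.7 CPM, the highest cell had 1469 CPM and the median was 16.4 CPM. *Tgfb3* medians were 17.8 CPM at d8 and 11.7 CPM at d12, close to that of d0. Single cells also carried the mean at d5, which was 18.5 CPM without its highest cell (42.9 CPM with it), and in d12c cells 49 to 96, where 0.356 CPM was left.

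*Tgfb1* (ENSMUSG00000002603, chr7:26472021-26490096, plus strand), the most studied ligand, was barely detected and entered no comparison, since its mean was under 10 CPM in every group. From d0 to d4 between 2 and 5 UMIs were counted in each group, and no UMI was found at d5, d6p, d8, d8c, in d12c cells 49 to 96 or at d20. At d12, 45 UMIs (95% interval 32.8 to 60.2) were spread over 19 of 67 cells, a share of 28.4% (18.0 to 40.7%). After each cell was thinned to 50000 UMIs, 4 of 66 d12 cells had a UMI, or 6.06%. In d12c cells 1 to 24 the share was also 28.6% (6 of 21 cells, with 10 UMIs). With 3 cells as the limit that a count of 0 allows, cells with a *Tgfb1* UMI could make up to 4.84% of the 62 cells at d8 and up to 7.89% of the 38 at d20. These limits are on detection at this depth and not on the share of cells that express the gene.

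**Figure D1:**
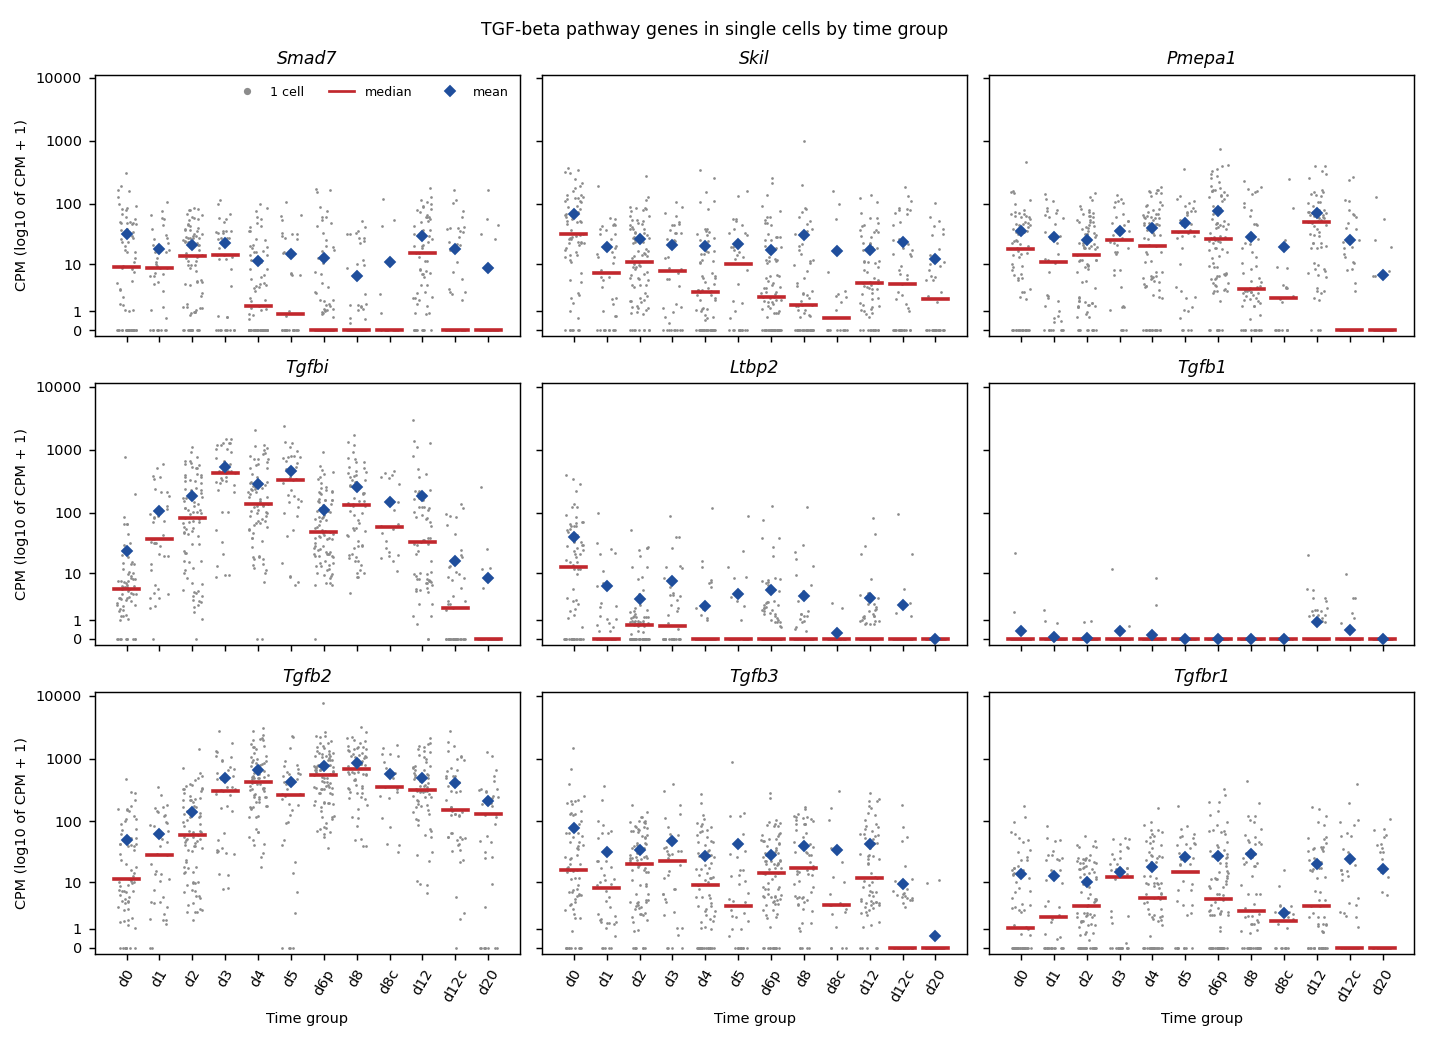
CPM of the 9 members in each kept cell (grey points, log10 of CPM + 1) by time group, with the median (red line) and the mean (blue diamond) of the group. The *Tgfb2* median climbs from 11.4 CPM at d0 to 692 CPM at d8, and *Tgfb1* lies at or near 0 throughout. Among the medians at 0 at d20 are those of *Smad7*, *Pmepa1*, *Tgfbi*, *Ltbp2* and *Tgfb3*, and some are at 0 earlier, as for *Smad7* at d6p and d8.

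The type I receptor gene *Tgfbr1* (ENSMUSG00000007613, chr4:47366094-47427803, plus strand) encodes the target of RepSox. Its mean was 14.1 ± 29.6 CPM (SD over 72 cells) at d0, 10.1 CPM at d2, its lowest in the unpicked groups, and 29.6 ± 66.3 CPM (SD over 62 cells) at d8. It was 20.4 CPM at d12 and 17.0 CPM at d20. *Tgfbr1* passed the 2-fold threshold in none of the 7 comparisons made. The d8 mean was 22.7 CPM without the highest cell, and cells with at least 10 CPM made up 31.9% at d0, 40.3% at d8 and 36.8% at d20. Colony cells varied, with 2.52 CPM (21 UMIs in 12 of 20 cells) in d8c and 42.9 CPM in d12c cells 1 to 24. In the latter the median was 4.17 CPM, and the mean was 25.1 CPM without its highest cell. The late d12c cells had a mean of 12.2 CPM, close to that of d0.

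Over the unpicked groups, the other receptor genes covered a wider range of means. *Tgfbr2*, which encodes the type II receptor that binds ligand first, had 19.9 CPM at d0, 50.5 CPM at d3, 98.5 CPM at d8 and 91.0 CPM at d12, and 7.86 CPM at d20. *Tgfbr3*, which encodes the co-receptor betaglycan that presents TGF-β2, had 15.9 CPM at d0, 69.6 CPM at d6p, 57.3 CPM at d12 and 4.64 CPM at d20. At d12 all 67 cells had a UMI of *Tgfbr2* and 65 had a UMI of *Tgfbr3*, whereas 9 and 11 of 38 d20 cells did.

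The pathway's own inhibitors followed 3 different courses. *Skil* (ENSMUSG00000027660, chr3:30993980-31021499, plus strand) encodes SnoN, a nuclear co-repressor of Smad complexes. Its mean was 69.2 ± 85.7 CPM (SD over 72 cells) at d0 and 19.97 ± 32.8 CPM (SD over 40 cells) at d1. From then on it stayed below d0, between 7.41 CPM in d12c cells 1 to 24 and 35.4 CPM in d12c cells 49 to 96. The d8 mean of 30.9 CPM was 14.9 CPM without 1 cell of 1005 CPM. *Skil* was at 10 CPM or more in 77.8% of d0 cells, 47.5% of d1 cells and 28.9% of d20 cells. The number ranges of d0 (45.8 to 105 CPM) and d1 (12.0 to 25.3 CPM) did not overlap.

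*Smad7* (ENSMUSG00000025880, chr18:75527183-75555589, plus strand) encodes the inhibitory Smad that blocks the type I receptor. Its mean was 32.3 ± 53.4 CPM at d0 and 18.2 ± 24.3 CPM at d1, with number ranges of 12.2 to 41.0 CPM and 10.95 to 29.1 CPM that overlapped. It was 23.4 CPM at d3, 6.32 ± 12.6 CPM at d8 and 30.4 ± 37.5 CPM at d12. Among the unpicked groups up to d12, *Smad7* was thus lowest at d8, and at d12 it was 1.06-fold below d0. The share of cells with a UMI of *Smad7* was 41.9% at d8 (95% interval 29.5 to 55.2%) and 85.1% at d12 (74.3 to 92.6%), and after thinning 20.3% and 45.5%. At d20 it was 8.50 CPM, from 5 of 38 cells. In d12c cells 49 to 72 no UMI of *Smad7* was found in 15 cells, whereas d12c cells 73 to 96 had a mean of 35.1 CPM, so that the 2 ranges of the late cells did not resemble each other.

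*Pmepa1* (ENSMUSG00000038400, chr2:173049959-173102034, minus strand) encodes a membrane protein that sequesters Smad2 and Smad3. It had 36.8 ± 62.5 CPM at d0, 29.1 ± 38.3 CPM at d1, 26.0 CPM at d2 and 77.3 ± 121 CPM (SD over 86 cells) at d6p. At d8 it was 28.6 CPM and at d12 71.7 ± 87.5 CPM (SD over 67 cells). Between d0 and d1 *Pmepa1* differed by 1.27-fold, whereas *Skil* differed by 3.47-fold. A UMI of *Pmepa1* was found in 64 of 67 cells at d12 but in 7 of 38 at d20 (18.4%, interval 7.74 to 34.3%) and in 4 of 30 d12c cells numbered 49 to 96. The mean was 52.6 CPM in d12c cells 1 to 24, 6.36 CPM in d12c cells 49 to 96 and 6.52 CPM at d20.

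*Smad3*, the signal transducer that these inhibitors oppose, was under 12 CPM in each group from d0 to d8 other than d6p (21.1 CPM). At d12 it had 53.7 CPM with a UMI in 66 of 67 cells, and at d20 3.07 CPM in 3 of 38 cells.

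The 2 matrix genes among the members moved in opposite directions. *Tgfbi* (ENSMUSG00000035493, chr13:56710920-56740923, plus strand) had 23.5 ± 93.6 CPM at d0, a mean that fell to 13.0 CPM without its highest cell. It then had 107 ± 146 CPM at d1, 181 CPM at d2, 536 ± 457 CPM at d3, 283 CPM at d4 and 466 CPM at d5. Later values were 108 CPM at d6p, 258 CPM at d8, 148 CPM in d8c cells and 182 CPM at d12. The level therefore rose within a day of a cocktail with an ALK5 inhibitor, and each unpicked group from d1 to d12 stood above d0. The *Tgfbi* median was 5.15 CPM at d0, 37.2 CPM at d1, 423 CPM at d3 and 33.7 CPM at d12. In the late groups *Tgfbi* had 37.0 CPM in d12c cells 1 to 24, 1.52 CPM in d12c cells 49 to 96 and 8.18 CPM at d20, of which 1.495 CPM was left without 1 cell of 256 CPM.

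*Ltbp2* (ENSMUSG00000002020, chr12:86124162-86217482, minus strand) had 40.5 ± 75.1 CPM at d0 and 5.94 ± 17.0 CPM at d1. From d2 to d12 it lay between 2.38 CPM at d4 and 7.26 CPM at d3, with 0.239 CPM in d8c cells. No UMI of *Ltbp2* was found in the 30 d12c cells numbered 49 to 96 or in the 38 d20 cells. By the same limit of 3 cells, up to 10.0% and 7.89% of such cells could have had a UMI, which does not limit how many expressed the gene. Number ranges had means of 31.8 to 70.4 CPM at d0 and 5.54 to 6.54 CPM at d1 and did not overlap.

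A target gene outside the members is given for reference, because it is among the most used readouts of the pathway. *Ctgf*, which encodes a matricellular growth factor, had 263 CPM at d0, 7.84 CPM at d1 and at most 8.20 CPM later, with 5.504 CPM at d12. A UMI of *Ctgf* was found in 67 of 72 cells at d0, in 32 of 40 at d1 and in 4 of 38 at d20.

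**Figure D2:**
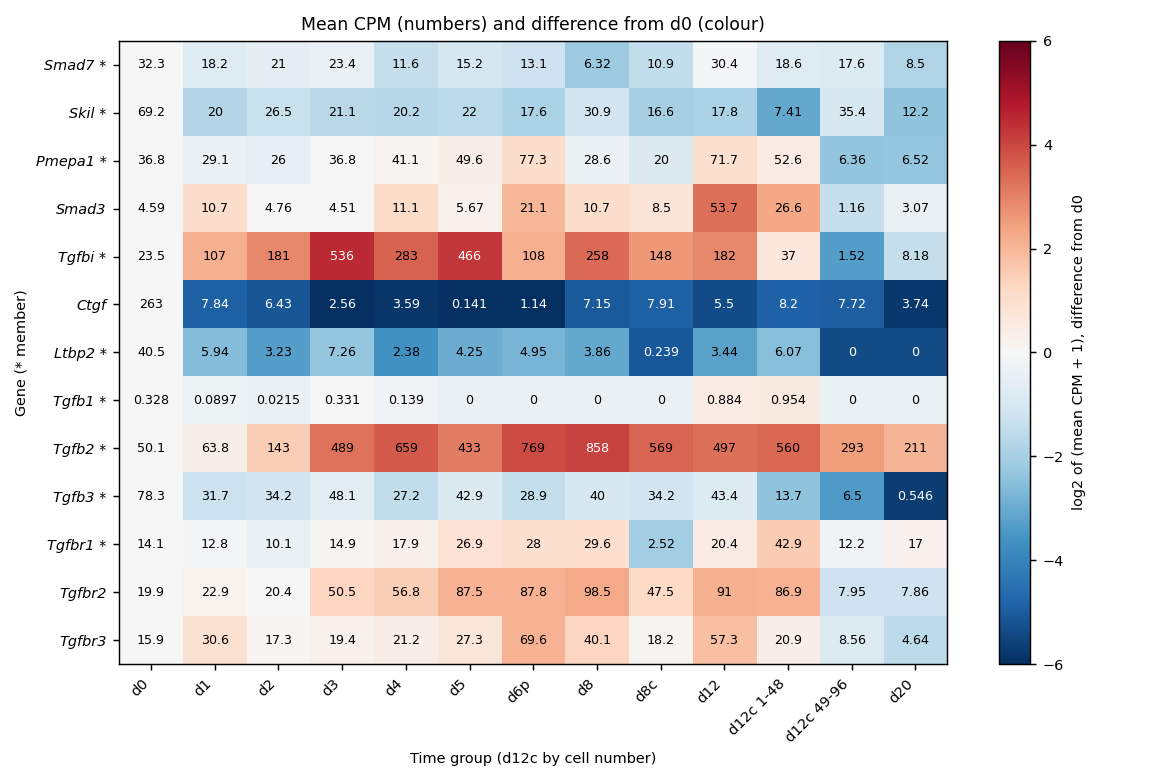
Mean CPM (printed in each cell) of the 9 members (marked by an asterisk) and of 4 other pathway genes in each time group, with d12c divided by cell number, and, as colour, the difference from d0 in log2 of mean CPM + 1. *Tgfb2* and *Tgfbi* are red from d2 to d12, *Skil*, *Ltbp2*, *Ctgf* and *Tgfb3* are blue after d0, and *Smad7* and *Smad3* are higher at d12 than at d8.

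To compare days, a gene was called higher or lower where its mean CPM differed by at least 2-fold between groups, among genes with at least 10 CPM in either. A call describes size alone. A member whose level is high in only 1 of the groups passes this filter through that group, so that counts of called members are a description and not support for a change of the pathway. From d0 to d1, 8 members could be compared. *Tgfbi* rose 4.55-fold (1 of 8 members, where 9.45% of all 7742 genes compared were called higher), and *Skil*, *Ltbp2* and *Tgfb3* fell (3 of 8 members, where 11.5% of all genes were called lower). *Skil* fell 3.47-fold, *Ltbp2* 6.82-fold and *Tgfb3* 2.47-fold, and the number ranges of d0 and d1 were apart for all 4 called members (7.84% of all genes were called higher and 7.94% lower with ranges apart). With UMIs pooled over the cells of a group, the ratio of *Tgfbi* was 10.4 (95% interval 9.38 to 11.5), and 1 d0 cell of 772 CPM carried much of the d0 mean. For *Smad7* the pooled ratio was 0.548 (0.500 to 0.601) and for *Tgfbr1* 0.987 (0.874 to 1.11).

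Among the wider pathway, 37 TGF-β target genes were listed beside the members. From d0 to d1, 18 of the 34 that could be compared fell and 4 rose. Among all genes compared, 11.5% were called lower and 9.45% higher. The median ratio of the targets was 0.435, against 1.02 over all genes. *Ctgf* fell 33.6-fold and *Wisp1*, which encodes a related matricellular protein, fell 30.6-fold. *Il11*, which encodes a cytokine, rose 12.7-fold and *Angptl4*, which encodes a lipase inhibitor, rose 10.4-fold. Of 12 latency and activation genes, a list without the ligand genes, 4 fell and none rose. Of 7 receptor genes 4 fell and none rose, and of 13 Smad and inhibitor genes 1 fell and 1 rose. The target list shares *Col1a1*, *Col1a2* and *Col3a1* with the fibroblast markers, and the latency and activation list shares *Fbn1* with them. The median summed level of these markers was 2014 CPM at d1 against 3451 CPM at d0. The sum does not stand for each marker. From d0 to d1 *Twist2* (171 to 751 CPM), *Prrx1* (229 to 352 CPM) and *Pdgfra* (28.2 to 119 CPM) rose in mean, and the other listed markers fell. The part of the fibroblast markers in these counts was not tested.

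Between d1 and d3, *Tgfb2* rose 7.66-fold and *Tgfbi* 5.01-fold (2 of 7 members, where 13.2% of genes were called higher), and no member fell (7.41% of all genes were called lower). The number ranges of both did not overlap (12.5% of all genes were called higher and 6.91% lower with ranges apart), with *Tgfb2* at 54.2 to 78.2 CPM at d1 and 419 to 540 CPM at d3. Of 33 targets 7 rose and 4 fell in this interval, with a median ratio of 1.32 against 1.02 over all genes. *Il11* fell 22.3-fold, while *Itgb5*, an integrin chain that takes part in TGF-β activation, rose 8.38-fold and *Dact1* rose 61.8-fold.

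Between d3 and d8, *Smad7* fell 3.7-fold and *Tgfbi* fell 2.08-fold (2 of 7 members, where 12.5% of all genes were called lower), and no member was called higher (12.7% of genes). With pooled UMIs the ratio of *Smad7* was 0.559 (0.494 to 0.631) and that of *Tgfbi* 0.558 (0.546 to 0.570), neither past the 2-fold threshold. Number ranges were apart for both (10.6% of all genes were called higher and 11.3% lower with ranges apart). *Tgfb2* was 1.76-fold higher, short of the threshold, but with pooled UMIs its ratio was 2.21 (2.18 to 2.25) and passed it. The members past 2-fold, and their direction, thus depended on whether cells were averaged or pooled. *Tgfbr1* was 1.98-fold higher, with a pooled ratio of 1.69 (1.54 to 1.85). Of 32 targets 13 rose and 4 fell, with a median ratio of 1.6 against 0.992 over all genes. *Col1a1* rose 7.92-fold and is itself part of the fibroblast marker sum, whose median rose from 2601 to 14937 CPM. The sum is thus no separate readout. Among its other markers *Col1a2* rose from a mean of 414 to 2667 CPM, *Col3a1* from 592 to 2732 CPM and *Dcn* from 314 to 4058 CPM. *Thy1* (323 to 192 CPM) and *Twist2* (420 to 390 CPM) fell. *Thbs1*, an activator of latent TGF-β, rose 10.4-fold. *Has2*, a hyaluronan synthase gene, fell 85.8-fold and *Hmga2* 7.17-fold.

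**Figure D3:**
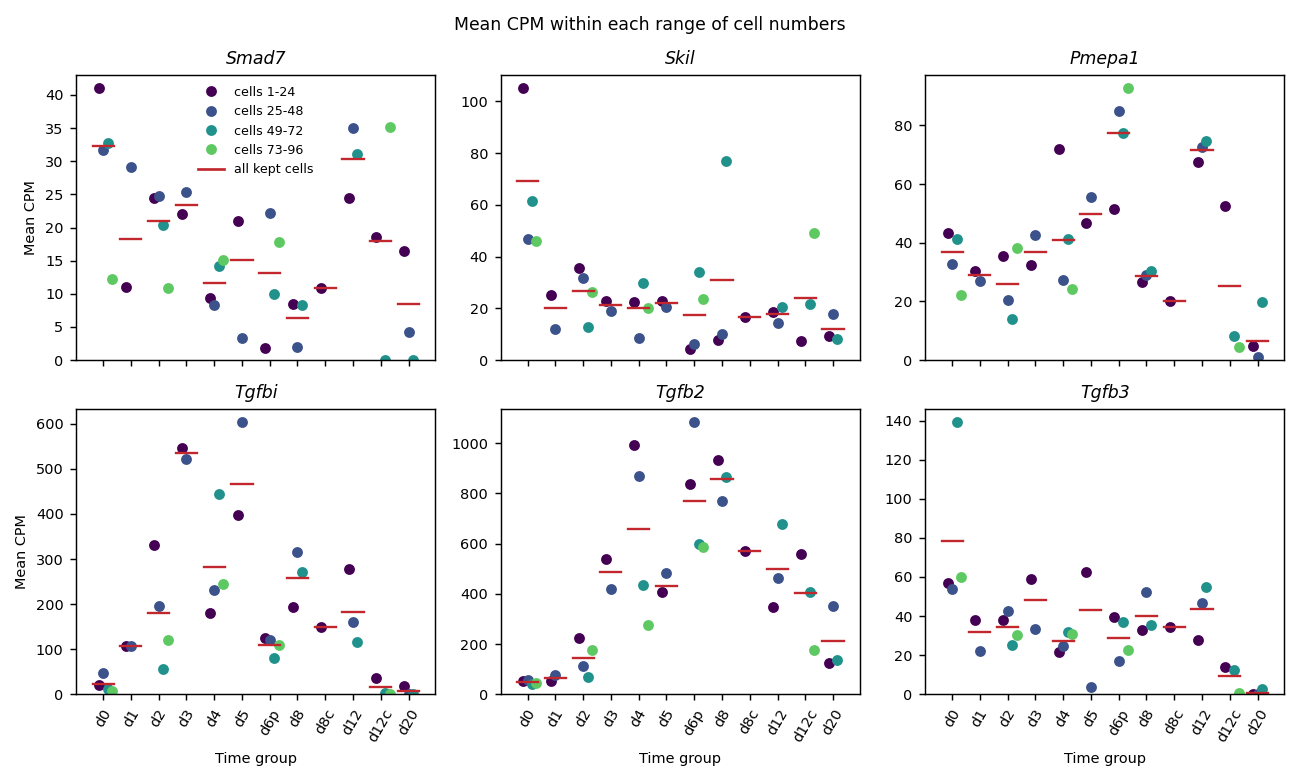
Mean CPM of 6 members over the kept cells of each range of 24 cell numbers (points, coloured by range) and over all kept cells of the group (red line). The ranges of *Tgfb2* at d8 (770 to 931 CPM) lie above those at d0 (42.2 to 55.9 CPM), and 1 range sets the d8 mean of *Skil* and the highest value of *Tgfb3* at d0.

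Unpicked d12 cells, in which all 10 fibroblast markers exceeded 10 CPM, were compared with d0. The markers were not kept at their d0 levels. *Osr1* (140 to 24.95 CPM) and *Fbn1* (127 to 30.9 CPM) had lower means at d12, and the other listed markers had higher means. The XEN marker sum reached 2601 CPM in the highest d12 cell, against 324 CPM in the highest d0 cell, so the group was not uniform. *Tgfb2* was 9.93-fold and *Tgfbi* 7.75-fold higher (2 of 8 members, where 19.6% of all genes were called higher), and *Ltbp2* was 11.8-fold and *Skil* 3.89-fold lower (2 of 8 members, where 20.3% were called lower). Number ranges were apart for all 4 (16.3% of all genes were called higher and 14.3% lower with ranges apart). *Pmepa1* was 1.95-fold higher, with a pooled ratio of 2.25 (2.10 to 2.40), and *Smad7* differed by 1.06-fold. Of 33 targets 12 were higher and 7 lower, with a median ratio of 1.55 against 0.893 over all genes. *Angptl4* was 36.4-fold and *Il11* 32.5-fold higher, while *Ctgf* was 47.8-fold lower. *Ldlrad4*, which encodes an inhibitor of Smad phosphorylation, had no UMI at d12 and was at least 255-fold lower.

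Since several members changed between d8 and d12, this interval was added after their values had been seen. *Smad7* rose 4.81-fold and *Pmepa1* rose 2.51-fold (2 of 7 members, where 14.8% of all genes were called higher), with pooled ratios of 3.45 (3.11 to 3.85) and 1.90 (1.80 to 2.01). No member fell (17.6% of genes were called lower), though the pooled ratio of *Tgfbi* was 0.439 (0.426 to 0.453) and that of *Tgfb2* 0.499 (0.491 to 0.506). Of 33 targets 11 rose and 4 fell, with a median ratio of 1.54 against 0.877 over all genes, and *Il11* rose 37.3-fold, while *Nuak1* fell 18.6-fold. The ranges of both *Smad7* (1.99 to 8.40 CPM at d8, 24.4 to 34.9 CPM at d12) and *Pmepa1* (26.5 to 30.5 CPM and 67.7 to 74.5 CPM) were apart (12.5% of all genes were called higher and 13% lower with ranges apart). The fibroblast marker sum had a median of 14937 CPM at d8 and 10619 CPM at d12.

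**Figure D4:**
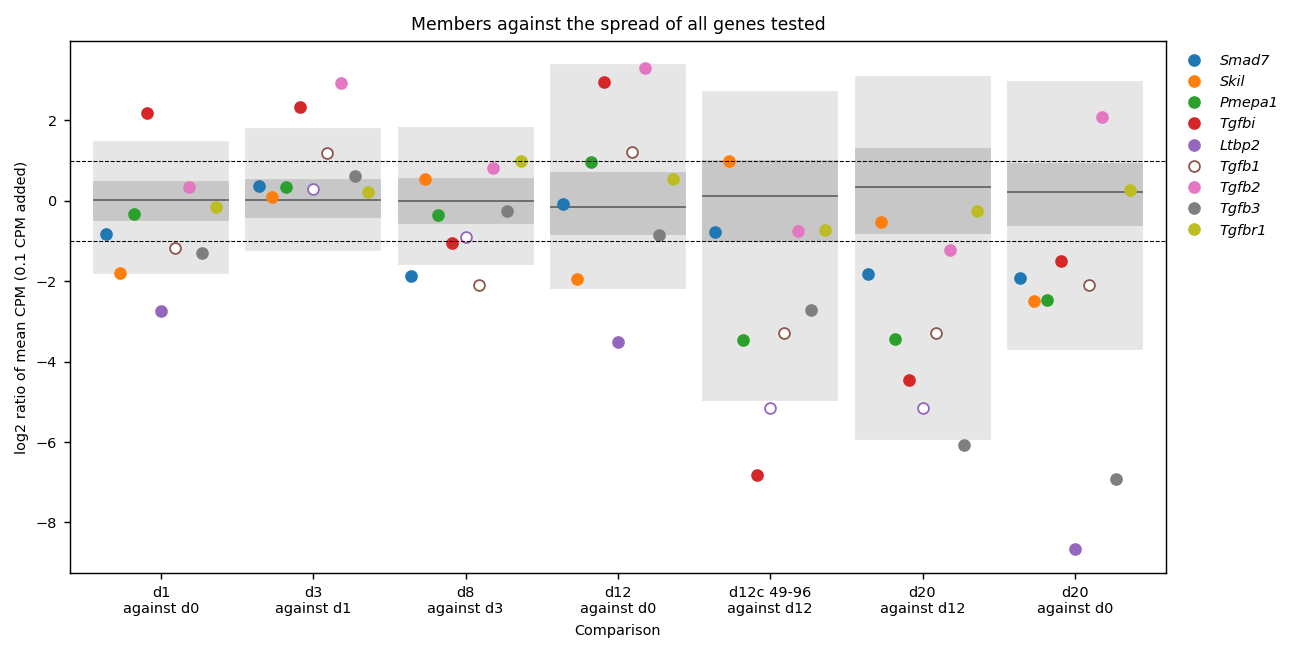
Log2 ratio of mean CPM (0.1 CPM added to each mean) of the 9 members (coloured points, open where the gene was under 10 CPM in both groups) in the 7 planned comparisons, over the range that holds the middle 90% (light grey) and 50% (dark grey) of all genes compared, with their median (line). Dashed lines mark 2-fold. *Tgfbi* and *Tgfb2* lie above the light band between d1 and d3, and *Tgfb3* and *Ltbp2* lie below it at d20 against d0.

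The colony cells of d12 differed by number in their fibroblast markers, with a median sum of 6615 CPM in the early and 186 CPM in the late cells. The 21 early-numbered cells had *Pmepa1* at 52.6 CPM, *Smad7* at 18.6 CPM and *Tgfb2* at 560 CPM, each within 2-fold of unpicked d12 cells. Lower by more than 2-fold were *Tgfbi* (37.0 against 182 CPM), *Tgfb3* (13.7 against 43.4 CPM) and *Skil* (7.41 against 17.8 CPM). *Tgfbr1* was higher by more than 2-fold (42.9 against 20.4 CPM), a mean that rested in part on its highest cell, as given above. The 30 late-numbered cells, with XEN markers, were compared with unpicked d12 cells. *Tgfbi* was 120-fold lower (10 UMIs in 7 of 30 cells), *Pmepa1* 11.3-fold and *Tgfb3* 6.68-fold lower (3 of 7 members, where 25.1% of all genes were called lower), and no member was called higher (24.6%). Number ranges were apart for all 3 (22.2% of all genes were called higher and 23.4% lower with ranges apart). *Tgfb2* differed by 1.70-fold, with a pooled ratio of 0.594 (0.568 to 0.621), and all but 1 of the 30 cells had a UMI of it. *Skil* was 1.99-fold higher, with a pooled ratio of 2.20 (1.93 to 2.5). *Ltbp2* had no UMI and, at under 10 CPM in both groups, was not compared.

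Most of the listed target genes and of the latency and activation genes were lower in the late d12c cells too. Of 32 targets 28 were lower and none higher, with a median ratio of 0.0456 against 1.08 over all genes. Likewise 12 of 12 latency and activation genes, among them the fibroblast marker *Fbn1* but no ligand gene, were lower. Among all genes compared, 25.1% were called lower and 24.6% higher. *Il11* was at least 662-fold and *Tagln*, a smooth muscle actin-binding protein gene, at least 291-fold lower. Of 13 Smad and inhibitor genes 4 were lower and 3 higher, with a median ratio of 1.09, and among the latter *Bambi*, which encodes a pseudoreceptor, was 9.67-fold and *Tgif2*, a Smad co-repressor gene, 5.43-fold higher. The median summed fibroblast markers were 186 CPM here against 10619 CPM at d12, with 4 of 10 markers over 10 CPM. Whether the loss of fibroblast identity and the level of these genes are linked was not tested.

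With d12c taken as 1 group, cells of d20 had the lowest mean of the 12 groups for *Skil*, *Pmepa1*, *Tgfbi*, *Ltbp2* and *Tgfb3*. With d12c divided, *Skil* was lower in its early cells, *Pmepa1* and *Tgfbi* were lower in its late cells, and *Ltbp2* was at 0 in both the late cells and d20. Against d12, *Tgfb3* fell 79.5-fold, *Tgfbi* 22.2-fold, *Pmepa1* 10.99-fold, *Smad7* 3.58-fold and *Tgfb2* 2.36-fold (5 of 7 members, where 22.8% of all genes were called lower), and no member rose (31.8%). *Tgfb2* ranges overlapped between the days, with 126 to 350 CPM at d20 and 348 to 679 CPM at d12, and those of the other 4 were apart (25.5% of all genes were called higher and 20% lower with ranges apart). *Skil* and *Tgfbr1* were within 2-fold, with pooled ratios of 0.480 (0.374 to 0.608) and 0.859 (0.723 to 1.02). Of 32 targets 30 fell and none rose, and the median ratio was 0.0209 against 1.28 over all genes. *Lox*, a collagen crosslinking enzyme gene, and *Postn*, a matrix protein gene, had no UMI at d20 and were at least 732-fold and 350-fold lower. *Tgif2* rose 7.36-fold and *Acvr2b*, which encodes an activin type II receptor, 4.20-fold.

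Over the whole course, *Tgfb2* was 4.21-fold higher at d20 than at d0 (1 of 8 members, where 23.2% of all genes were called higher). *Ltbp2* was at least 101-fold, *Tgfb3* 143-fold, *Skil* 5.67-fold, *Pmepa1* 5.64-fold, *Smad7* 3.80-fold and *Tgfbi* 2.87-fold lower (6 of 8 members, where 18.3% were called lower). The direction of *Tgfbi* did not hold for pooled UMIs, with a ratio of 1.29 (1.04 to 1.58), and without the highest cell of each group its means were 1.495 and 13.0 CPM. Number ranges overlapped between d0 and d20 for *Smad7* and *Tgfbi* and were apart for the other 5 called members (16.5% of all genes were called higher and 13.4% lower with ranges apart). *Tgfbr1*, at 17.0 CPM against 14.1 CPM, was the member nearest to its starting level. Of 32 targets 25 were lower and none higher, with a median ratio of 0.0769 against 1.15 over all genes. *Bgn* and *Lox*, both matrix genes without a UMI at d20, were at least 1470-fold and 1357-fold lower. *Acvr2b* was 17.8-fold and *Zfyve9*, which encodes a Smad anchor, 6.18-fold higher. The fibroblast marker sum had a median of 244 CPM at d20, with a range of 75.7 to 940 CPM against 96.5 to 11852 CPM at d0, and the part of cell identity in these differences was not tested.

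**Figure D5:**
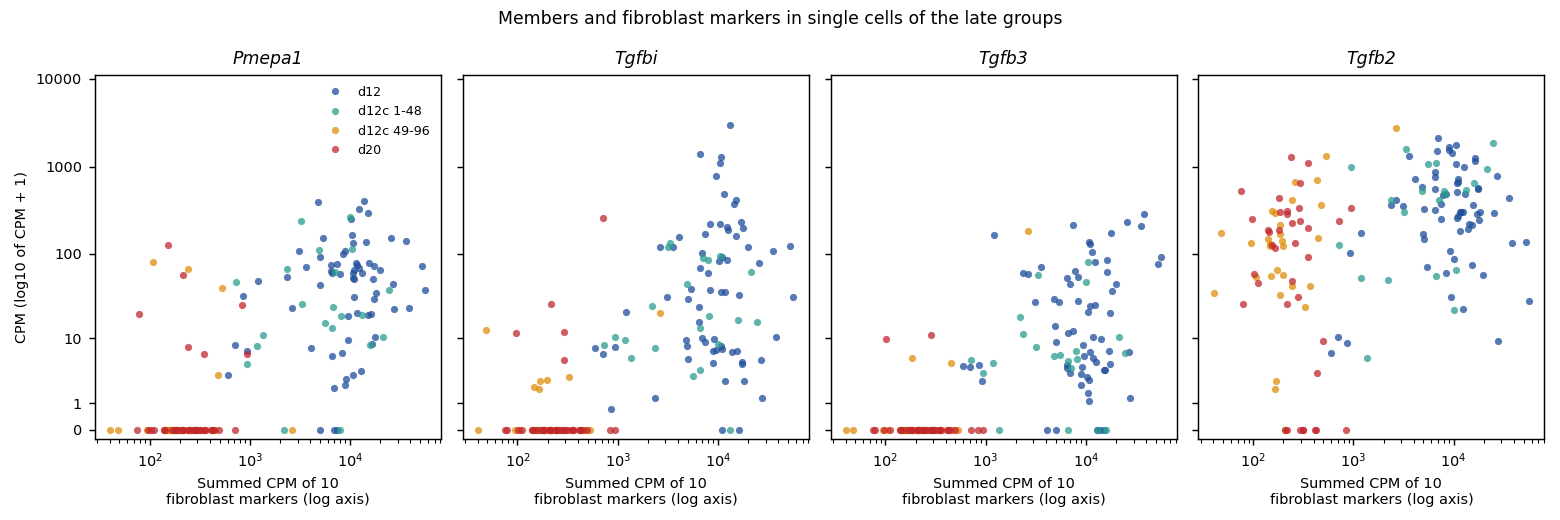
CPM of 4 members (log10 of CPM + 1) against the summed CPM of the 10 fibroblast markers (log axis) in single cells of d12, d12c (numbers 1 to 48 and 49 to 96) and d20. Most d12c cells numbered 49 to 96 and d20 cells lie at low marker sums with *Pmepa1*, *Tgfbi* and *Tgfb3* at 0, whereas *Tgfb2* is detected in 29 of 30 and 30 of 38 of them.

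When the 12 groups, with d12c as 1 group, were ordered by the mean of each member, the quartile ranges over cells of neighbours in the order did not overlap in 1 of 99 pairs, that of *Tgfbi* at d1 (13.8 to 118 CPM) and d0 (2.24 to 9.73 CPM). Sorting by the mean places like groups side by side, so this count describes the order and compares no spreads. For *Tgfb2* the order from the highest was d8, d6p, d4, d8c, d12, d3, d5, d12c, d20, d2, d1 and d0, and for *Tgfb3* d0 was first and d20 last. For *Smad7* d0 and d12 were the highest and d20 and d8 the lowest, for *Skil* d0 was first and d20 last, and for *Tgfbr1* d8 was first and d8c last.

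The genes whose group means were most like those of a member were named by Pearson correlation over the 12 groups among 10382 genes, as a description. They were *Mtpn* for *Smad7* (r = 0.952), *Sord* for *Skil* (0.919), *Rab21* for *Pmepa1* (0.945), *Abhd8* for *Tgfbi* (0.984) and *Atp10a* for *Ltbp2* (0.936). For *Tgfb2* it was *Fam234a* (0.959), for *Tgfb3* *Pla2g4a* (0.949) and for *Tgfbr1* *Tmem167b* (0.926). No other member was among the 3 most alike genes of any member. Across single cells, correlations were computed within d0, d2, d8, d12 and d20 only, without *Tgfb1*, and those between members were mostly low. Where few cells had a UMI, as for *Smad7* in 5 of 38 d20 cells, a low value does not show that genes are unrelated. *Tgfb3* and *Tgfbr1* had a Spearman correlation of 0.505 over 72 cells of d0, *Smad7* and *Pmepa1* 0.435 over 67 cells of d12, and *Smad7* and depth 0.458 over 62 cells of d8. These points share a group and differ in depth, and no other pair among those computed exceeded 0.4.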

How the data were processed

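Single cells picked by hand during C6FAE reprogramming were sequenced as 10 batches. As deposited, the counts were made by the authors, who sorted the reads into cells by barcode, aligned the trimmed reads to mm9 transcripts and collapsed duplicates by UMI. The aligner is not given in the sources used here. The count table held 808 cells, 92 ERCC spike-ins and 23201 genes, of which 26 carried dates as names and 4 entries with repeated dates were left out. The 5 counts of at least 100000 were rounded values, up to 129000. The 670 cells that had 4000 or more detected genes were used, ERCC RNAs, 5.43% of their counts, were left out, and CPM were averaged over cells. The cells map to no batch, so the 12 groups were compared by size alone, at 2-fold and at least 10 CPM, in 7 comparisons and 1 added later. The 9 members, gene lists and named genes (the listed genes with the largest ratios in each comparison) were chosen with earlier results of these data known. A result for 1 listed gene is not reported here. Bounds for genes without a UMI used 3 UMIs over the group. Shares were also taken after thinning to 50000 UMIs. The fold calls were tested on simulated data. Alternatives are described at the end. Positions are from GENCODE on NCBIM37, counted from 1. Python 3.11.15, numpy 2.4.6, pandas 2.3.3 and scipy 1.17.1 were used, with edgeR 4.0.16 and DESeq2 1.42.0 (R 4.3.3) for scaling factors.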

Additional observations from a re-analysis of the deposited data

How the results depend on the processing

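With 1 sample a group, the cells, their depth (a median of 195480 UMIs at d20) and the filter set the precision, and no replicate error was available. No paired analysis was possible because the cell names do not show the batch. In the 7 planned comparisons, 26 member calls had a mean above 0 in both groups. Of these, 20 kept their direction and 2-fold size under each alternative that gave a finite ratio. The other 6 were *Smad7* at d8 against d3 and d20 against d0, *Tgfb2* at d20 against d12, *Tgfb3* at d1 against d0, and *Tgfbi* at d8 against d3 and d20 against d0. *Ltbp2* at d20 against d0, with no UMI at d20, was called lower but is not in this count. Other thresholds for the filter and the fold were not part of this count. The exception in direction was *Tgfbi* at d20 against d0, with a log2 ratio of 0.78 at 6000 or more detected genes, 0.36 with pooled UMIs, 0.13 with TMM and 0.21 with DESeq2 size factors, against -1.52 as reported. The cause was not tested. Relative to pooled CPM, TMM moved all ratios by -0.36 and DESeq2 size factors by -0.33 (log2) at d20 against d12, by -0.23 and -0.16 at d20 against d0, by 0.12 and 0.17 at d12 against d0, and by -0.18 and -0.13 at d12c cells 49 to 96 against d12. The share of higher among all called genes went from 58.3% to 43.6% and 44.8% at d20 against d12, from 55.9% to 43.2% with TMM at d20 against d0, and from 49.1% to 59.2% with DESeq2 at d12 against d0.

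Members called changed as follows. At d8 against d3 there were 2, both lower, but 1 lower at 6000 genes (*Smad7*) or at least 50 CPM (*Tgfbi*). With pooled UMIs, TMM or DESeq2 there was 1 of the other direction, *Tgfb2*, which was higher. There were 4 with log2 of CPM + 1 or at 1.5-fold, 6 with medians and 0 at 4-fold. In late d12c cells against d12 there were 3, all lower, but 5 at 6000 genes, with thinning, no filter or without the highest cell, 5 of which 1 (*Skil*) was higher with pooled UMIs or DESeq2, 6 with log2 of CPM + 1 or medians and 7 at 1.5-fold. At d1 against d0 there were 4, but 2 at 4-fold, and at d3 against d1 2, but 5 with medians. At d20 against d12 there were 5, but 3 at 50 CPM or 4-fold, and at d20 against d0 7, but 3 at 50 CPM.

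Genes called among all genes, in the order d1 against d0, d3 against d1, d8 against d3, d12 against d0, late d12c against d12, d20 against d12 and d20 against d0, numbered 1626, 1639, 2068, 3266, 4175, 4762 and 3491. They were 519, 498, 771, 1381, 2037, 2248 and 1407 with log2 of CPM + 10, and 6904, 6594, 7142, 8974, 9781, 10291 and 9200 without a filter. At 50 CPM or more they were 529, 515, 736, 1321, 1695, 2040 and 1263, and at 4-fold 526, 494, 604, 1357, 2091, 2445 and 1653. With medians the first 3 were 3312, 2809 and 4236, and at 1.5-fold the first 4 were 3176, 3221, 3895 and 4929. Thinning lowered the median share of cells with a UMI from 69.4% to 39.5%, and Spearman in place of Pearson kept 3 of the 24 most alike genes. Cells numbered 49 and above were too few at d1, d3 and d20, and d12c cells 49 to 96 have none numbered 1 to 48, so 6 of these alternatives were not run.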
